A study of Mus musculus with 8 samples.

Results

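Proteasome genes were taken from the array table by their platform gene symbol, as the symbols that start with Psma, Psmb, Psmc, Psmd, Psme, Psmf or Psmg followed by a number. The probe sets that list 1 symbol gave 49 such genes among 18193 genes with a single-symbol probe set, and each gene was read from its brightest probe set over the 8 arrays. They comprised 31 core subunits of the 26S particle, the 3 immunoproteasome subunits Psmb8, Psmb9 and Psmb10, and 15 other genes, namely assembly chaperones, activators, an inhibitor, tissue-restricted subunits and name matches. Psmc3ip, a meiotic recombination factor, and Psme3ip1, a protein that binds Psme3, matched by name and are not proteasome parts. The activator gene Psme2 was not a member, because its probe set lists Psme2b as well.

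The 26S proteasome is the main protease for ubiquitin-tagged proteins in the cytosol and nucleus. Its 20S core is a stack of alpha and beta rings in which only some beta subunits cut peptide bonds, and its 19S cap binds ubiquitin, unfolds the substrate with a ring of ATPases and feeds it into the core. Interferon-gamma induces alternative catalytic subunits, which form the immunoproteasome of blood and immune cells and change the peptides offered to class I MHC molecules.

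The samples were mouse bone marrow progenitors isolated on a flow sorter and hybridised to Affymetrix Mouse Genome 430 2.0 arrays, in 4 groups of 2 arrays. Common myeloid progenitors (CMP) can still form erythroid and megakaryocytic cells, and granulocyte-macrophage progenitors (GMP) derive from them. The G4/G5 TERTER/ER groups, one of GMP and one of CMP, came from late-generation mice homozygous for a fusion allele of telomerase and are the telomere-dysfunctional animals. The G0 TERTER/+ groups, again one of GMP and one of CMP, came from mice with 1 fusion allele and are the normal animals, so every group carries the allele. Each array held cells pooled from 4 male mice, whose background the labels give as mainly C576BL/6, and no age is stated in the sources used here. A pool of 4 animals is the replicate, so the error terms describe the spread between pools.

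All values are MAS5 signals on a linear scale, and changes are differences of log2(signal + 10) with their standard error after ±, from limma with n = 2 pools per group. A gene was tested where its signal reached 50 on at least 2 arrays, which 8886 genes did, and was called where its p, adjusted over all of them by the Benjamini-Hochberg method, was under 0.05. Of the 49 members 48 were tested. The exception was Psmb11, a subunit of thymic epithelial cells, whose highest signal was 7.6. The median signal was between 14.3 and 15.7 on the GMP arrays and between 17.4 and 18.5 on the CMP arrays. Between 31.6% and 32.7% of probe sets reached 50 on the GMP arrays, and between 34.2% and 35.2% on the CMP arrays. The number of arrays limits the precision. The markers of GMP, 7 of 8 with a probe set, summed to between 26956 and 31499 in the 4 GMP arrays, to 23657 and 22224 in G4/G5 CMP and to 6277 and 13816 in G0 CMP. The markers of maturing neutrophils, 13 of 14 with a probe set, summed to 67910 in G4/G5 CMP pool 1 and to 1126 in pool 2. They summed to 37412 and 40522 in G4/G5 GMP, 3964 and 6116 in G0 GMP, and 1068 and 1229 in G0 CMP. The CMP-side markers, 6 of 7 with a probe set, summed to 583 and 635 in G4/G5 GMP, 992 and 982 in G0 GMP, 4459.8 and 2084 in G4/G5 CMP, and 2732 and 2438 in G0 CMP. The part of these cell type markers in the comparisons of GMP with CMP was not tested.

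Many proteasome transcripts were higher in GMP than in CMP, and none was called lower in GMP in either genotype. In G4/G5 mice 6 of 48 members, or 12.5%, were called higher in GMP, against 4.18% of all genes, and 0 lower, against 6.29%. At an unadjusted p under 0.05 there were 23 higher, against 13.3%, and 0 lower, against 16.1%. In G0 mice 25 members, or 52.1%, were called higher in GMP, against 10.6% of all genes tested, and 0 were called lower, against 10.2%. At an unadjusted p under 0.05 there were 36 higher, against 18.2% of all genes, and 0 lower, against 18.3%. The change was above 0 in 44 members in G4/G5 and 46 in G0, against 46.3% and 48.7% of all genes. The median change of the members was 0.35 in G4/G5 and 0.56 in G0, beside -0.04 and -0.02 for all genes tested. Under quantile normalization it was 0.278 in G4/G5 and 0.445 in G0, beside 0.016 and 0.008 for all genes. The members called were then 2 and 13, beside 805 and 1578 of all genes. The part of the lower median signal of the GMP arrays in these changes was not tested. More RNA per cell and more cells of a type that holds such RNA cannot be told apart in these sorted pools.

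Psma3, Psma5, Psmb3, Psmc2 and Psmd2 were called in both genotypes, 83.3% of the 6 called in G4/G5 and 20% of the 25 called in G0. The sixth gene called in G4/G5 was the name match Psmc3ip. The 4 GMP arrays lay above the 4 CMP arrays without overlap in 24 members, or 50% of those tested, against 14.8% of all genes, and the reverse order was found in 0, against 17.5%. Within G4/G5 the GMP and CMP arrays did not overlap, GMP higher, in 31, against 27.7%, and CMP was the higher in 2, against 33%. Within G0 they did not overlap, GMP higher, in 42 members, against 32.2% of all genes, and CMP was the higher in 0, against 33.1%. The count of calls rested on few arrays. The count over all genes moved with it. In G4/G5, where 930 of all genes were called in either direction, the members' count was 14 with the pool number as a block, beside 1465 of all genes with the block within each cell type and 1225 with it shared. It was 0 without any 1 of the 4 GMP arrays, beside 65, 105, 390 and 396 of all genes, and 1 without G4/G5 CMP pool 2, beside 608. It was 12 without G0 CMP pool 1 and 16 without G0 CMP pool 2, beside 1266 and 1293. In G0, where 1845 of all genes were called, it was 0 without G0 GMP pool 1 and 1 without G0 GMP pool 2, beside 67 and 446 of all genes. It was 8 without G0 CMP pool 2 and 14 without either G4/G5 GMP array, beside 1029, 1073 and 1071. The members' median change with 1 array left out was between 0.26 and 0.48 in G4/G5 and between 0.44 and 0.69 in G0.

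**Figure D1:**
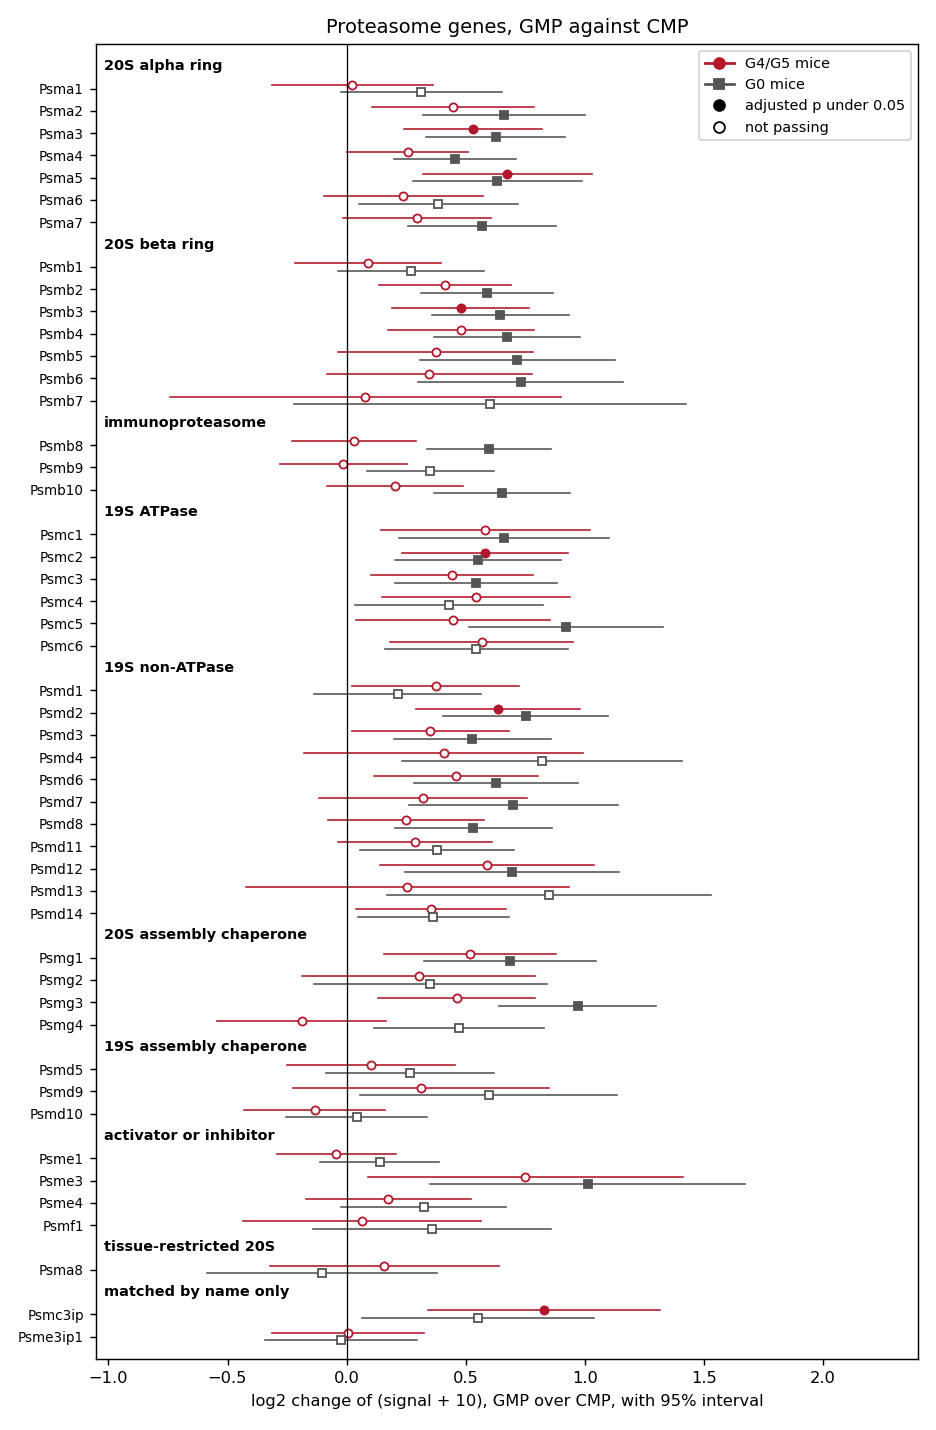
Log2 change of each tested proteasome gene in GMP over CMP, with its 95% interval, for G4/G5 mice (red circles) and G0 mice (grey squares), grouped by role; filled symbols passed an adjusted p of 0.05. Nearly all symbols lie right of 0, with 6 filled for G4/G5 and 25 for G0.

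The catalytic beta subunits of the standard core were read gene by gene. Psmb5, the chymotrypsin-like subunit, had signals of 1322 and 1036 in G4/G5 GMP, 1249 and 1229.8 in G0 GMP, 997 and 815 in G4/G5 CMP, and 857 and 657 in G0 CMP. All GMP arrays lay above all CMP arrays for Psmb5, and its change in GMP was 0.37 ± 0.18 in G4/G5 and 0.72 ± 0.18 in G0, of which the G0 change was called (limma adjusted p = 0.206 and 0.0270). Psmb6, the caspase-like subunit, had 1353 and 1027 in G4/G5 GMP, 1246 and 1139 in G0 GMP, 1042 and 820.0 in G4/G5 CMP, and 804 and 634 in G0 CMP. Its arrays of G4/G5 GMP pool 2 and G4/G5 CMP pool 1 crossed, at 1026.5 and 1042, and its change in GMP was 0.35 ± 0.19 in G4/G5 and 0.73 ± 0.19 in G0 (limma adjusted p = 0.254 and 0.0298). Psmb7, the trypsin-like subunit, had 375 and 207 in G4/G5 GMP, 419 and 273 in G0 GMP, 235 and 295 in G4/G5 CMP, and 159 and 302 in G0 CMP. The pools of Psmb7 were far apart within groups and the groups overlapped, and neither of its changes, 0.08 ± 0.36 in G4/G5 and 0.60 ± 0.36 in G0, was called (limma adjusted p = 0.905 and 0.260). Between genotypes, in G4/G5 over G0, the 3 genes were not called either. Their changes in GMP were -0.08 ± 0.18 for Psmb5, -0.01 ± 0.19 for Psmb6 and -0.27 ± 0.36 for Psmb7, and in CMP 0.26 ± 0.18, 0.37 ± 0.19 and 0.25 ± 0.36 in the same order (limma adjusted p between 0.435 and 0.985).

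Promoter windows from RefSeq (GRCm38.p6, from 250 bases before to 50 bases after the start site) were found for 41 of the 49 members, with 44 windows. They were searched on both strands for 4 short motifs known from these genes. TGACNNNGC is the core of the antioxidant response element, which the proteasome regulators Nfe2l1 and Nfe2l2 bind, and it was in 13.6% of the member windows and 12.4% of all 32851 windows. CCAAT, bound by NF-Y, was in 36.4% of member windows and 37.4% of all. TTCNNNGAA, the core of the gamma-activated site of STAT proteins, was in 6.82% and 8.3%, and the core of the interferon-stimulated response element was in 11.4% and 3.44%. That 11.4% was 5 of 44 windows, those of Psmd4, Psmd9, Psmb3, Psmg4 and Psme1. The 3 immunoproteasome windows held 0 matches to this core. Psmb5 and Psmb6 were among the 25 members called higher in G0 GMP, and their windows are shown as examples from the 6 member windows with the antioxidant response element core. Psma3, Psmb3, Psmc2 and Psmd2, also called there, had windows without this core, and a link of motif and call was not tested. Capitals mark the core, starting 47 bases before the start site of Psmb5 and 9 before that of Psmb6. The windows of Psmb5 and Psmb6 lie at chr14:54617946-54618245 on the minus strand and chr11:70525107-70525406 on the plus strand.
Psmb5: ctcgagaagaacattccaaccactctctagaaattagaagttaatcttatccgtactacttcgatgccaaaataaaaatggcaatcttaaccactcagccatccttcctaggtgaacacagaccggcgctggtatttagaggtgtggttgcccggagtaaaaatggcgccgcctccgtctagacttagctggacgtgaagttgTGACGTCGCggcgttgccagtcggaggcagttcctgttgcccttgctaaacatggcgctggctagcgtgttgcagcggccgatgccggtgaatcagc
Psmb6: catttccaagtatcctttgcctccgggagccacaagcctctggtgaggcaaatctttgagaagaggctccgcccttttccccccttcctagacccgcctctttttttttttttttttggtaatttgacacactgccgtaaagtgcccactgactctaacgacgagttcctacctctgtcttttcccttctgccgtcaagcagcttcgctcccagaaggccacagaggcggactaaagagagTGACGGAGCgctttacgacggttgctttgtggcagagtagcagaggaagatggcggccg

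Most other ring subunits carry no catalytic site and shape the core. Beside the counts by role here and below, 4.18% of all genes were called higher in GMP in G4/G5 and 10.6% in G0. Of the 7 alpha ring genes 2 were called higher in G4/G5 GMP and 5 in G0 GMP, with medians of 0.30 and 0.57. Of the 7 standard beta ring genes 1 was called in G4/G5 and 5 in G0, with medians of 0.37 and 0.65. Psma3, an alpha subunit, had 3470.5 and 3181 in G4/G5 GMP, 3507 and 3242 in G0 GMP, 2484 and 2122 in G4/G5 CMP, and 2324 and 2049 in G0 CMP. Its GMP and CMP arrays were well apart, and its change in GMP was 0.53 ± 0.13 in G4/G5 and 0.63 ± 0.13 in G0 (limma adjusted p = 0.0367 and 0.0139). Psma5, another alpha subunit, had 2588 and 2398 in G4/G5 GMP, 2799 and 2312 in G0 GMP, 1559.9 and 1557 in G4/G5 CMP, and 1874 and 1431 in G0 CMP. It changed by 0.67 ± 0.16 in G4/G5 and 0.63 ± 0.16 in G0, again with no overlap (limma adjusted p = 0.0331 and 0.0253). Psmb3, a beta subunit without catalytic activity, had 2194 and 1895 in G4/G5 GMP, 1823 and 1728 in G0 GMP, 1556 and 1370.1 in G4/G5 CMP, and 1157 and 1106 in G0 CMP. Its change was 0.48 ± 0.13 in G4/G5 and 0.65 ± 0.13 in G0 (limma adjusted p = 0.0472 and 0.0122), and within both cell types its G4/G5 arrays lay above its G0 arrays.

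**Figure D2:**
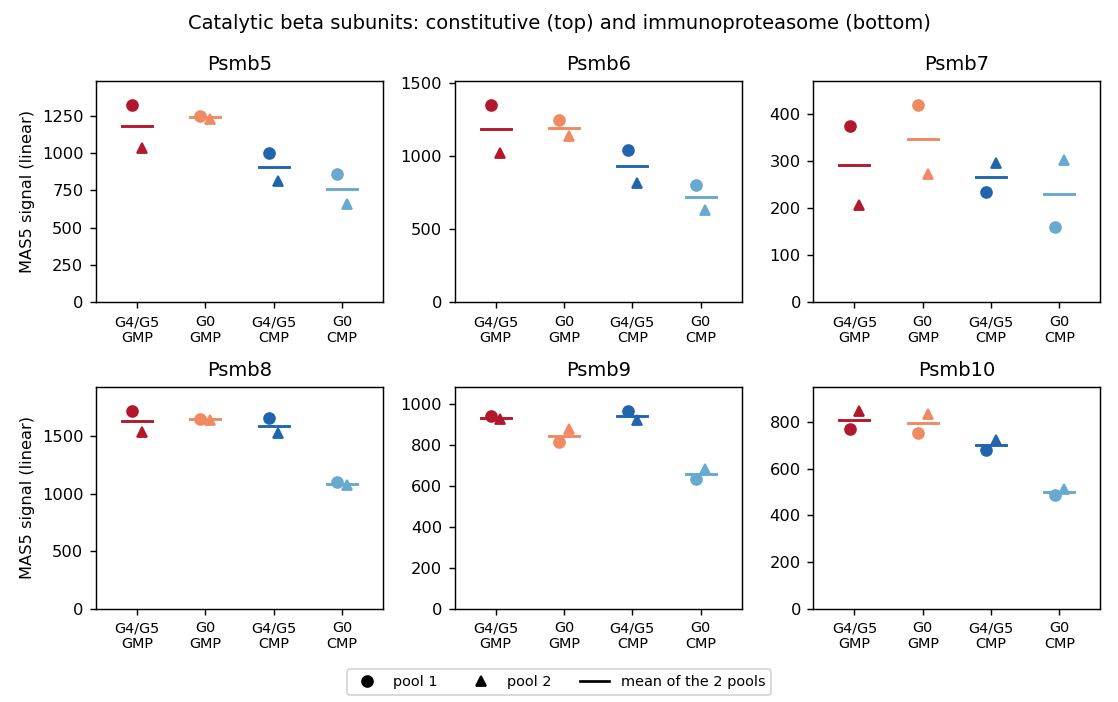
MAS5 signal on a linear axis from 0 for the catalytic subunits of the standard core (top) and the immunoproteasome (bottom); circles are pool 1, triangles pool 2 and lines the mean of the 2 pools. Psmb5 and Psmb6 differ mainly between GMP and CMP. Psmb8, Psmb9 and Psmb10 are lowest in the 2 G0 CMP pools, and so is Psmb6.

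The 19S cap held calls in both of its parts. Of its 6 ATPase genes 1 was called higher in G4/G5 GMP and 4 in G0 GMP, with medians of 0.55 in each. Psmc2 had 1930.0 and 1893 in G4/G5 GMP, 2062 and 1845 in G0 GMP, 1378 and 1177 in G4/G5 CMP, and 1509.5 and 1167 in G0 CMP. This ATPase changed by 0.58 ± 0.15 in G4/G5 and 0.55 ± 0.15 in G0 (limma adjusted p = 0.0470 and 0.0369), with all GMP arrays above all CMP arrays. Psmc5, also an ATPase, had 538 and 433 in G4/G5 GMP, 639 and 552 in G0 GMP, 354 and 349.6 in G4/G5 CMP, and 357 and 268 in G0 CMP. Its change was 0.45 ± 0.18 in G4/G5, which was not called, and 0.92 ± 0.18 in G0 (limma adjusted p = 0.141 and 0.0121). Of the 11 non-ATPase genes 1 was called in G4/G5 and 6 in G0, with medians of 0.35 and 0.63. Psmd2, a scaffold of the base that docks ubiquitin shuttle proteins, had 1021 and 952 in G4/G5 GMP, 1206 and 1055 in G0 GMP, 675 and 589 in G4/G5 CMP, and 743 and 597 in G0 CMP. It changed by 0.64 ± 0.15 in G4/G5 and 0.75 ± 0.15 in G0 (limma adjusted p = 0.0359 and 0.0135).

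The particle is built with the help of dedicated chaperones. Of the 4 chaperones of 20S assembly 0 were called in G4/G5 and 2 in G0, with medians of 0.38 and 0.58. Psmg3, which works on the alpha ring together with Psmg4, had 348 and 331 in G4/G5 GMP, 474 and 422 in G0 GMP, 249 and 239 in G4/G5 CMP, and 244 and 205 in G0 CMP. Its change in G0 GMP was 0.97 ± 0.14, the smallest adjusted p of the members (limma adjusted p = 0.00555), and it was 0.46 ± 0.14 in G4/G5 (limma adjusted p = 0.0758). Psmg4 had 279.9 and 304 in G4/G5 GMP, 357 and 362 in G0 GMP, 301 and 370.3 in G4/G5 CMP, and 235 and 279.5 in G0 CMP. It had the lowest change of all members in G4/G5, -0.19 ± 0.16, beside 0.47 ± 0.16 in G0, and neither was called (limma adjusted p = 0.448 and 0.0639). Of the 3 chaperones of 19S assembly, Psmd5, Psmd9 and Psmd10, 0 were called in either genotype, with medians of 0.10 in G4/G5 and 0.27 in G0, and Psmd10 had 253 and 261 in G4/G5 GMP, 251 and 251 in G0 GMP, 287 and 279 in G4/G5 CMP, and 253 and 234 in G0 CMP.

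Activators open the core to substrates other than those the cap delivers. Psme3, whose product forms a nuclear activator ring of the core, had 184 and 172 in G4/G5 GMP, 321 and 222 in G0 GMP, 102 and 102 in G4/G5 CMP, and 179 and 90.3 in G0 CMP. It had the largest change of all members in G0, 1.01 ± 0.29, and a change of 0.75 ± 0.29 in G4/G5 that was not called (limma adjusted p = 0.0406 and 0.131), and its 2 G0 CMP pools were far apart. Over 20 alternatives its change in G0 was between 0.56, without G0 CMP pool 2, and 1.47, without G0 CMP pool 1, and the call was kept in 10. A second probe set of Psme3 changed by 0.15 in G0. Psme1, a subunit of the interferon-inducible activator of the cytosol, had 1866 and 1833 in G4/G5 GMP, 1733 and 1732 in G0 GMP, 1868 and 1947 in G4/G5 CMP, and 1491 and 1659 in G0 CMP. Its change was -0.04 ± 0.11 in G4/G5 and 0.14 ± 0.11 in G0, and neither was called (limma adjusted p = 0.823 and 0.392). The probe set shared by Psme2, the other subunit of that activator, and Psme2b had 1196 and 1179 in G4/G5 GMP, 1218 and 1215 in G0 GMP, 979 and 1002 in G4/G5 CMP, and 891 and 876 in G0 CMP, and was not tested. Psmc3ip had 273 and 271 in G4/G5 GMP, 299 and 284 in G0 GMP, 126 and 175 in G4/G5 CMP, and 237 and 161 in G0 CMP, and its change was 0.83 ± 0.21 in G4/G5 and 0.55 ± 0.21 in G0 (limma adjusted p = 0.0442 and 0.0983). Psma8, the alpha subunit of testis, had 120.5 and 127 in G4/G5 GMP, 76.1 and 102 in G0 GMP, 124 and 97.4 in G4/G5 CMP, and 108 and 84.2 in G0 CMP. It had the lowest change of all members in G0, -0.10 ± 0.21 (limma adjusted p = 0.756).

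The 3 immunoproteasome subunits had their lowest signals in the 2 G0 CMP pools. Psmb8, which takes the place of Psmb5, had 1718 and 1535 in G4/G5 GMP, 1650.4 and 1639 in G0 GMP, 1655 and 1527 in G4/G5 CMP, and 1096 and 1071 in G0 CMP. Psmb9, which takes the place of Psmb6, had 939 and 925 in G4/G5 GMP, 812 and 875 in G0 GMP, 965 and 918 in G4/G5 CMP, and 635 and 683 in G0 CMP. Psmb10, which takes the place of Psmb7, had 769 and 847 in G4/G5 GMP, 752 and 834 in G0 GMP, 678 and 722 in G4/G5 CMP, and 489 and 512 in G0 CMP. For each gene both G0 CMP arrays lay below the other 6 arrays. The same order was also found in Psma4, Psmb2, Psmb3, Psmb4, Psmb6, Psmd8, Psmd13, Psme1 and Psmg4. Its share over all genes was not counted. The G4/G5 CMP arrays of the immunoproteasome genes lay near those of GMP, though for Psmb10 all GMP arrays lay above all CMP arrays.

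The promoter windows of Psmb8, Psmb9 and the activator gene Psme1 are shown as examples with a match among interferon-inducible genes that had their lowest signals in G0 CMP. Psmb10 was lowest there as well, but its window held none of the 4 motifs and is not shown. Capitals mark a gamma-activated site core 97 bases before the start of Psmb8 (chr17:34197945-34198244, plus strand), whose motif matches on both strands, a CCAAT box in reverse 8 bases before the start of Psmb9 (chr17:34187281-34187580, minus strand), and an interferon-stimulated response element core in reverse 10 bases into Psme1 (chr14:55578244-55578543, plus strand). The Psmb9 window shares 275 bases, in reverse, with that of Tap1, which encodes a subunit of the peptide transporter of class I presentation. A match is a description of these letters and not evidence of binding.
Psmb8: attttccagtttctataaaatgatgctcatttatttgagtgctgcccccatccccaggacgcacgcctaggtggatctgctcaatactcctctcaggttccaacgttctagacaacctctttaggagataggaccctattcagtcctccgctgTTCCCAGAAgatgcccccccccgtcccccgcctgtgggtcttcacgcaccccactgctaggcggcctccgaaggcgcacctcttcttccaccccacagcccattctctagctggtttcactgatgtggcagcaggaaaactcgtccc
Psmb9: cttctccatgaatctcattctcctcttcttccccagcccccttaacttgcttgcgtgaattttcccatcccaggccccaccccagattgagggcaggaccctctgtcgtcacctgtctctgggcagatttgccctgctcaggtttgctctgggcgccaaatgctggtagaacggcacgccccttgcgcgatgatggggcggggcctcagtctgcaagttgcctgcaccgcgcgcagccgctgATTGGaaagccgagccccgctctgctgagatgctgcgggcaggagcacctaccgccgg
Psme1: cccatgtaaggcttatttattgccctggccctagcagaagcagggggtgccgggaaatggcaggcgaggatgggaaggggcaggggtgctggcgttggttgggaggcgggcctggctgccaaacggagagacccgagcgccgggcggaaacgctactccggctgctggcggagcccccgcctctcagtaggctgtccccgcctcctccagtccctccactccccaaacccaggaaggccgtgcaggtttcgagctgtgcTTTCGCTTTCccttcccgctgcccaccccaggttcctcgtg

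In G4/G5 CMP against G0 CMP the change was 0.55 ± 0.11 for Psmb8, 0.51 ± 0.12 for Psmb9 and 0.47 ± 0.13 for Psmb10. The G4/G5 and G0 pools did not overlap for any of them, with G4/G5 higher, which was so for 21.7% of all genes. None of the 3 was called (limma adjusted p = 0.229, 0.237 and 0.259), and the unadjusted p was 0.00119, 0.00215 and 0.00477. The median change of the 3 was 0.51, against 0.13 over the 48 members and 0.04 over all genes. Without G4/G5 CMP pool 2, which left the pool rich in neutrophil markers as the only G4/G5 CMP array, Psmb8 was called higher (limma adjusted p = 0.0429). At that setting 4.97% of all genes were called in either direction. A second, dimmer probe set of Psmb8 had 54.3 and 58.6 in G4/G5 CMP and 68.2 and 80.3 in G0 CMP, the opposite order, and averaging the probe sets gave a change of 0.10. In G4/G5 GMP against G0 GMP the change was -0.02 ± 0.11 for Psmb8, 0.14 ± 0.12 for Psmb9 and 0.03 ± 0.13 for Psmb10, and none was called (limma adjusted p = 0.970, 0.750 and 0.962).

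The test of the difference between the genotype effects, GMP minus CMP, gave -0.57 ± 0.16 for Psmb8, -0.36 ± 0.17 for Psmb9 and -0.45 ± 0.18 for Psmb10. None was called (limma adjusted p = 0.994 for each), with unadjusted p of 0.00748, 0.0567 and 0.0337. In G4/G5 the GMP against CMP change was 0.03 ± 0.11 for Psmb8, -0.01 ± 0.12 for Psmb9 and 0.20 ± 0.13 for Psmb10 (limma adjusted p = 0.884, 0.949 and 0.308). In G0 it was 0.60 ± 0.11, 0.35 ± 0.12 and 0.65 ± 0.13, with Psmb8 and Psmb10 called (limma adjusted p = 0.0117, 0.0653 and 0.0117). These G0 changes and the genotype changes in CMP are read against the same 2 G0 CMP arrays. The neutrophil marker sum differed between the G4/G5 CMP pools, at 67910 and 1126, while Psmb8 had 1655 and 1527 there, Psmb9 965 and 918, and Psmb10 678 and 722. The GMP marker sum was higher in both G4/G5 CMP pools than in both G0 CMP pools, as the 3 subunits were. Between the G0 CMP pools that sum differed, at 6277 and 13816. Psmb8 had 1096 and 1071 there, Psmb9 635 and 683, and Psmb10 489 and 512. The markers of macrophages and dendritic cells had 6 of 6 with a probe set and 3 of them reaching 50. Their sums were also higher in both G4/G5 CMP pools, at 302 and 229, than in G0 CMP, at 82.4 and 139.5. The markers of T and NK cells, 4 of 4 with a probe set and 2 reaching 50, had the same order. Their sums were 1180 and 891 in G4/G5 CMP and 734 and 783 in G0 CMP. The part of any of these lists in the values of the 3 subunits was not tested.

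**Figure D3:**
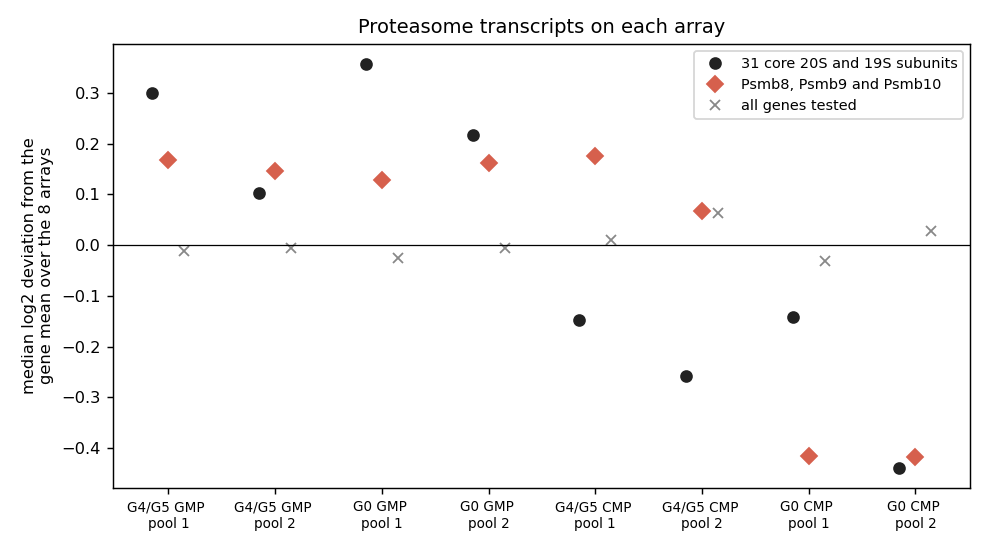
For each array, the median over a gene group of the log2 deviation from the gene's mean over the 8 arrays, for the 31 core subunits (circles), the 3 immunoproteasome subunits (diamonds) and all genes tested (crosses). The core subunits are above 0 on the GMP arrays and below 0 on the CMP arrays, and the immunoproteasome subunits are below 0 on the 2 G0 CMP arrays only.

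No member was called for genotype, and the counts over 48 members here include the 3 immunoproteasome genes. In CMP 0 of 48 members were called higher in G4/G5, against 0% of all genes tested, and 0 lower, against 0.0113%. At an unadjusted p under 0.05, 6 were higher, against 8.72% of all genes, and 1 lower, against 4.72%. Beside the 3 immunoproteasome genes the 6 held Psmb3 at 0.37 ± 0.13, Psmg4 at 0.37 ± 0.16 and Psme1 at 0.28 ± 0.11, named after their values were seen (limma adjusted p = 0.314, 0.364 and 0.345). The CMP pools did not overlap, G4/G5 higher, in 13 members, or 27.1%, against 21.7% of all genes, and G4/G5 lower in 2, against 14.9%. Without the 3 immunoproteasome genes the count with G4/G5 higher was 10 of 45. In GMP 0 were called higher and 0 lower, against 0% of all genes for each, and at an unadjusted p under 0.05 there were 0 higher, against 4.6%, and 2 lower, Psmc4 and Psmg3, against 3.26%. Psmg3 changed by -0.39 ± 0.14 in GMP (limma adjusted p = 0.600). The GMP pools did not overlap, G4/G5 lower, in 13 members, or 27.1%, against 26.5% of all genes, and G4/G5 higher in 6, against 28.8%. The change was above 0 in 11 members in GMP, or 22.9%, against 50.9% of all genes, and in 34 members in CMP, or 70.8%, against 55.6%. Of the 45 members other than the immunoproteasome genes it was above 0 in 9 in GMP and 31 in CMP. The median change of the members was -0.07 in GMP and 0.13 in CMP, beside 0.01 and 0.04 for all genes. These medians rested on single arrays. That in GMP was 0.008 without G4/G5 GMP pool 2 and -0.16 without G4/G5 GMP pool 1, and was -0.02 and -0.13 without G0 GMP pool 1 and pool 2. That in CMP was -0.008 without G0 CMP pool 2 and 0.23 without G0 CMP pool 1, and was 0.02 and 0.19 without G4/G5 CMP pool 1 and pool 2.

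Single genes stood out from these medians without passing the test. The largest genotype change of a member in CMP was that of Psmd13, a subunit of the 19S lid, which had 336 and 217 in G4/G5 GMP, 248 and 276 in G0 GMP, 224 and 225 in G4/G5 CMP, and 196 and 100.3 in G0 CMP. Its G0 CMP pools were far apart, and its change in CMP was 0.64 ± 0.30 (limma adjusted p = 0.397), with 0.18 without G0 CMP pool 2 and 1.09 without G0 CMP pool 1. The 3 probe sets of Psmd13 that passed the filter changed by between 0.056 and 0.64 in CMP, and averaging them gave 0.30. The lowest genotype change of a member in CMP was that of Psmc4, an ATPase of the cap, with 1172 and 1213 in G4/G5 GMP, 1516 and 1669.5 in G0 GMP, 832 and 800.1 in G4/G5 CMP, and 1421 and 976 in G0 CMP. Its G4/G5 pools lay below its G0 pools in both cell types, with changes of -0.52 ± 0.17 in CMP and -0.41 ± 0.17 in GMP (limma adjusted p = 0.312 and 0.613). Over 20 alternatives the change in CMP was between -0.79 and -0.24, with -0.26 without G0 CMP pool 1. It was called in 1 of them, without G0 CMP pool 2 (limma adjusted p = 0.0426), where 115 of 8743 genes were called, against 1 of 8886 with all arrays. In GMP it was called in a fit of the GMP arrays alone (limma adjusted p = 0.0459), where 330 of 8229 genes were called, against 0 with all arrays. A second probe set of Psmc4 had 444 and 383 in G4/G5 CMP and 409 and 391 in G0 CMP, without that difference. In GMP the largest change was that of Psma8, 0.45 ± 0.21 (limma adjusted p = 0.633), and the lowest that of Psme3, -0.56 ± 0.29 (limma adjusted p = 0.640), which was -0.30 ± 0.29 in CMP (limma adjusted p = 0.686).

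Averaged over both cell types the genotype effect called 0 members higher, against 0.0113% of all genes, and 0 lower, against 0.0225%, and at an unadjusted p under 0.05 there were 5 higher, against 11.2%, and 2 lower, against 6.65%. The averaged effect was above 0 in 24 members, against 53.9% of all genes. Its extremes were Psmd13 at 0.34 ± 0.21 and Psmc4 at -0.47 ± 0.12 (limma adjusted p = 0.424 and 0.187). The difference of the genotype effects, GMP minus CMP, called 0 in each direction, against 0% of all genes, with 0 higher and 4 lower at an unadjusted p under 0.05, against 1.51% and 2.46%. It was above 0 in 8 members, or 16.7%, against 45.1% of all genes. Its extremes were Psmc3ip at 0.28 ± 0.30 and Psmg4 at -0.66 ± 0.22, and neither was called (limma adjusted p = 0.994 for both).

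**Figure D4:**
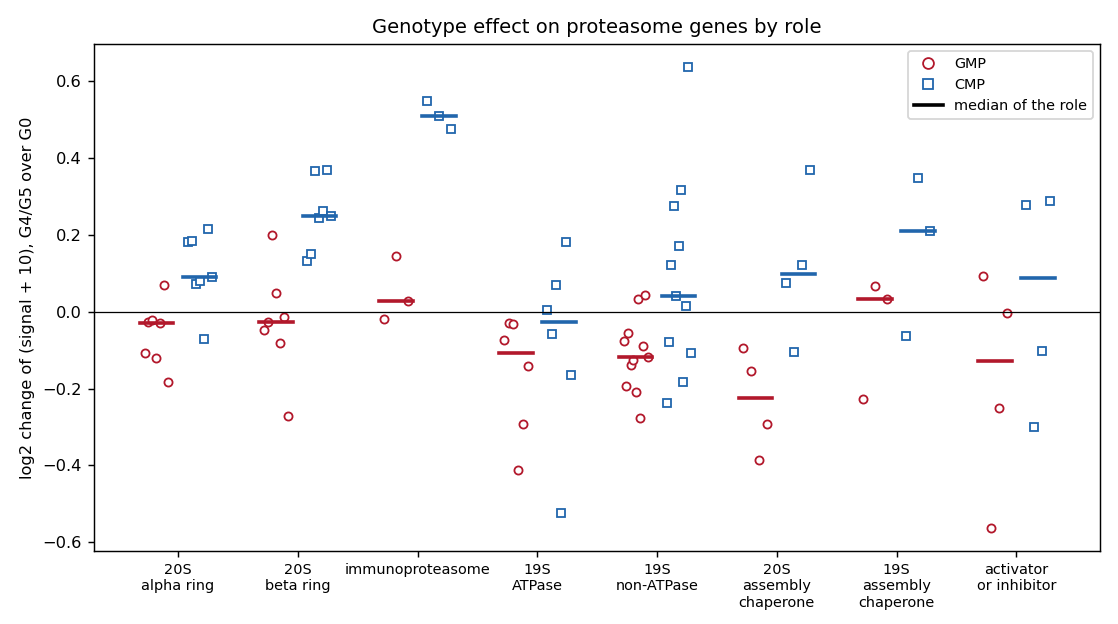
Log2 change in G4/G5 over G0 of proteasome genes by role, in GMP (red circles) and CMP (blue squares), with a line at each median. The tissue-restricted subunit Psma8 and the name matches Psmc3ip and Psme3ip1 are not drawn. The immunoproteasome genes in CMP lie between 0.47 and 0.55, and no gene shown passed an adjusted p of 0.05.

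The pools of a group also differed in level. Pool 1 was above pool 2 in 41 of 48 members in G4/G5 GMP, 37 in G0 GMP, 36 in G4/G5 CMP and 40 in G0 CMP, whereas it was above in 47.8%, 48.4%, 44.5% and 46.8% of all genes. The median gap of the members, on the log2 scale, was 0.12 in G4/G5 GMP, 0.10 in G0 GMP, 0.13 in G4/G5 CMP and 0.27 in G0 CMP. Relative to each gene's mean over the 8 arrays, the 31 core subunits had medians of 0.30 and 0.10 in G4/G5 GMP, 0.36 and 0.22 in G0 GMP, -0.15 and -0.26 in G4/G5 CMP, and -0.14 and -0.44 in G0 CMP. The G0 CMP pools were further apart than the nearest GMP and CMP arrays.

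Genes that work beside the immunoproteasome in class I presentation were read from a list of 10, all tested. In CMP 0 of them were called between G4/G5 and G0, and 5 were higher in G4/G5 at an unadjusted p under 0.05, against 8.72% of all genes. The change was above 0 in 7 of the list and below 0 in 3, with a median of 0.37, beside 0.04 for all genes. The 5 were Tap1 at 0.61 ± 0.20, its partner Tap2 at 0.55 ± 0.18, the class I light chain B2m at 0.49 ± 0.16, and the class I heavy chains H2-K1 at 0.40 ± 0.16 and H2-D1 at 0.68 ± 0.14 (limma adjusted p between 0.234 and 0.346). These changes moved with single arrays. That of H2-K1 was 0.15 without G0 CMP pool 1, that of Tap1 was 0.33 without G4/G5 CMP pool 2, and that of B2m was between 0.10 and 0.73 over 20 alternatives. B2m and H2-D1 were called without G0 CMP pool 2, and H2-D1 without G4/G5 CMP pool 2, where 115 and 435 of all genes were called. In GMP the list's median was 0.06. Between cell types the chaperone Canx was called higher in GMP in both genotypes, at 0.45 ± 0.11 in each (limma adjusted p = 0.0380 in G4/G5 and 0.0245 in G0), and Tap1 was called lower in G4/G5 GMP, at -0.97 ± 0.20 (limma adjusted p = 0.0246). Of 7 interferon regulators 5 were tested, and 0 were called between genotypes in either cell type. In CMP 0 passed an unadjusted p of 0.05, with 2 changes above 0, 3 below 0 and a median of -0.03. The highest of these changes was 0.91, for Irf8, whose pools overlapped. Irf8 had 593 and 1005 in G4/G5 CMP and 248 and 662 in G0 CMP. In GMP 1 regulator was higher in G4/G5 at an unadjusted p under 0.05, against 4.6% of all genes. The calls of the interferon regulators between cell types were all lower in GMP. Irf9, a subunit of an interferon-activated transcription complex, changed by -0.97 ± 0.17 in G4/G5 and -0.67 ± 0.17 in G0 (limma adjusted p = 0.0136 and 0.0283). In G0 Irf2, an antagonist of Irf1, changed by -1.43 ± 0.30 and Nlrc5, an activator of class I genes, by -0.60 ± 0.17 (limma adjusted p = 0.0158 and 0.0394).

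Partners of the proteasome were called in both directions. Of 16 partner genes 13 were tested, with a median GMP against CMP change of 0.12 in each genotype. Uchl5, a deubiquitinase of the cap, was called higher in GMP, at 0.95 ± 0.16 in G4/G5 and 0.73 ± 0.16 in G0 (limma adjusted p = 0.0123 and 0.0178). Zfand5, a zinc finger protein that binds ubiquitin and the proteasome, was called lower, at -0.97 ± 0.13 and -0.92 ± 0.13 in G4/G5 and G0 (limma adjusted p = 0.00517 and 0.00478). Pomp, the maturation factor of the core, was called higher in G0, at 0.40 ± 0.11 (limma adjusted p = 0.0353), and was 0.23 ± 0.11 in G4/G5 (limma adjusted p = 0.199). Between genotypes 0 partners were called in either cell type, with 2 at an unadjusted p under 0.05 in CMP and 0 in GMP.

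Of 11 genes that control proteasome transcription 10 were tested. Nfe2l1, the factor that raises proteasome transcripts when the protease is impaired, changed by 0.01 ± 0.24 in G4/G5 GMP and 0.41 ± 0.24 in G0 GMP over CMP, and neither was called (limma adjusted p = 0.987 and 0.252). Ngly1, the deglycosylating enzyme that Nfe2l1 needs, was called lower in GMP in both genotypes, at -0.69 ± 0.15 in G4/G5 and -0.81 ± 0.15 in G0 (limma adjusted p = 0.0260 and 0.00989). Vcp, the ATPase that extracts Nfe2l1 from the membrane, was called higher in G0 GMP at 0.47 ± 0.11, and Bach1, a repressor at antioxidant response elements, lower at -0.42 ± 0.13 (limma adjusted p = 0.0236 and 0.0495). The call of Vcp was kept in 12 of 20 alternatives, with a change of 0.038 when its probe sets were averaged, and that of Bach1 in 7 of 20. Between genotypes 0 of the 10 were called in either cell type, and 1 was higher in G4/G5 CMP at an unadjusted p under 0.05. Of 6 genes of ubiquitin supply only Uba6, a ubiquitin-activating enzyme, was tested here, and it was called in no comparison. The calls between cell types of the genes on these lists named above were lost without either G4/G5 GMP array in G4/G5 and without G0 GMP pool 1 in G0.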

How the data were processed

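Gene expression was measured on 8 Affymetrix Mouse Genome 430 2.0 arrays, 2 pools in each of 4 groups. Per the labels' protocols, between 5 and 10 ng of total RNA from 5000 to 20000 sorted cells was labelled by a 3' in vitro transcription method. The deposited values are probe set intensities on a linear scale, which the authors made with MAS5 and scaled to a target signal of 100, per the series text and the submitters' processing notes. MAS5 scaling sets each array's trimmed mean, so changes are relative to the bulk of probe sets. Genes were named through the platform annotation, in which 34945 probe sets list 1 symbol, 932 list several and 9160 list none.

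Signals were analysed as log2(signal + 10). The brightest probe set of each gene that reached 50 on at least 2 arrays was kept, which left 8886 genes. limma 3.58.1 (R 4.3.3) fitted 1 mean per group over the 8 arrays, with 4 residual degrees of freedom and a trend of variance on intensity. Adjustment of p-values used the Benjamini-Hochberg method over all genes in each of 6 comparisons. The procedure was tested on simulated data. Genes with values on every array were the catalytic subunits, the 11S activator genes and, per comparison, the members that passed (at most 6 in each direction, by size of change) and those with the highest and lowest change. The members, gene lists, motifs and tests were chosen with earlier results of these data known. Alternatives covered the pseudocount, filter, normalization, probe set choice, pool block, fitted groups and trend, and each array was left out in turn.

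The series text pairs same-numbered G4/G5 and G0 pools as matched for age and sex. Over all genes their pool differences (pool 1 minus pool 2) correlated at r = 0.139 in GMP and 0.247 in CMP, as a description across genes. Between GMP and CMP of the same genotype r was 0.0343 in G4/G5 and 0.217 in G0. It was -0.229 for G0 GMP with G4/G5 CMP and 0.0664 for G4/G5 GMP with G0 CMP. No source used here says whether same-numbered GMP and CMP pools share mice.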

Additional observations from a re-analysis of the deposited data

How the results depend on the processing

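The number of arrays set the limits here, and no array has a replicate beyond the second pool. The count of members called between GMP and CMP in G4/G5, 6, was 0 with no filter, 2 with quantile normalization, 0 without the intensity trend, 1 with only the compared groups in the fit, and between 0 and 16 with 1 array left out. With same-numbered pools as a block, within each cell type or shared by both, it was 14 each time. Over all genes the count of 930 was 1465 or 1225 with the block, and between 65 and 1430 with 1 array left out. In G0 the count of 25 was 14 with no filter on low signal, 13 with quantile normalization and between 0 and 31 with 1 array left out. The block changed no other count of adjusted calls by over 1.5 times, and the 7 members at an unadjusted p under 0.05 for genotype in CMP were 11 with the block within each cell type and 10 with it shared. Between genotypes the counts of 0 became 1 in GMP with only the compared groups in the fit, where 330 of 8229 genes were called, and between 0 and 1 with 1 array left out in CMP and in the mean of both cell types. All genes called were then 115 of 8743 without G0 CMP pool 2 and 435 of 8758 without G4/G5 CMP pool 2 in CMP, and 212 of 8743 without G0 CMP pool 2 in the mean. The difference of the genotype effects called 0 under all of its alternatives.

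Over 88 gene results and their alternatives, 1751 values in all, 1505 kept direction and side of the threshold, 199 no longer passed, 20 newly passed and 27 turned direction, all for changes that were not called. With 1 array left out, the genotype change in GMP was between -0.26 and 0.092 for Psmb5, -0.21 and 0.18 for Psmb6, -0.69 and 0.14 for Psmb7, -0.099 and 0.063 for Psmb8, and -0.046 and 0.10 for Psmb10. That in CMP was between -0.19 and 0.69 for Psmb7 and between -0.76 and 0.16 for Psme3. The cell type change in G4/G5 was between -0.33 and 0.49 for Psmb7, -0.050 and 0.11 for Psmb8, -0.049 and 0.021 for Psmb9, and -0.021 and 0.037 for Nfe2l1. In G0 it was between -0.29 and 0.085 for Psma8 and between -0.0026 and 0.82 for Nfe2l1. Under quantile normalization the cell type change was -0.10 for Psmb8 in G4/G5, and in G0 it was 0.017 for Psma8 and -0.067 for Psme1. Under median centring the cell type change in G4/G5 was 0.040 for Psmb9 and 0.0099 for Psme1, and the genotype change of Psmb10 in GMP was -0.00015. Without x and s probe sets the difference of effects of Psmc3ip was -0.062. The causes were not tested.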

Other observations

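Where a member had several probe sets that passed the filter, the probe sets did not always move together. This was so for 21 members, and all probe sets of a gene had the same sign of change in 15 for the cell type comparison in G4/G5, 15 for that in G0, 15 for genotype in GMP and 10 for genotype in CMP. A second probe set of Psmd6, a subunit of the 19S lid, had between 821 and 1159 in the 4 GMP arrays, 680 and 46.8 in the G4/G5 CMP pools and 983 and 84.5 in the G0 CMP pools, so pool 2 was the lower of each CMP pair. The probe set of Psmd6 used in the report had between 1082 and 2013 over the 8 arrays and showed no such gap.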
